A study of Homo sapiens with 12 samples.

Results

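MET, MST1R, AXL, MERTK and TYRO3, which code for receptor tyrosine kinases of the MET and TAM families, and HGF, GAS6 and PROS1, which code for their ligands, were examined in 2 human lung adenocarcinoma lines kept with or without an EGFR inhibitor. The 8 genes were taken from a list of names, which was drawn up with earlier results of these data known. They were covered by 20 of the 41091 probe sets that were paired with a single gene symbol, among 54675 probe sets in the table, and 15 of the 20 passed the filter on dim signals and stood among the 26109 that were tested. PC9 and HCC827 are established lines that carry activating EGFR mutations. Erlotinib blocks the EGFR kinase, and DMSO is its solvent and served as the control. Each line was grown in RPMI with 10% fetal bovine serum and was harvested after 8 days in DMSO or in 2 micromolar erlotinib, with drug or solvent and medium renewed after 4 days. The 4 groups, PC9 in DMSO, PC9 in erlotinib, HCC827 in DMSO and HCC827 in erlotinib, held 3 arrays each. The sample labels give 1500000 cells plated in 10 cm dishes for DMSO and 8000000 cells in flasks of 150 cm2 for erlotinib, while the series description gives flasks for all cells. Plating and drug therefore cannot be told apart in any erlotinib comparison below. Separate cultures are not stated for the 3 arrays of a group, so that p-values measure only the spread between these samples, which may be technical.

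MET is the receptor of hepatocyte growth factor, which is secreted as an inactive chain by stromal cells and is cut into its active form by serine proteases. MST1R, also named RON, is the other receptor of that family and binds macrophage-stimulating protein. AXL, MERTK and TYRO3 form the TAM family, whose vitamin K-dependent ligands GAS6 and protein S, the product of PROS1, bridge the receptors to phosphatidylserine on membranes, with GAS6 binding all members and protein S binding MERTK and TYRO3. In EGFR-mutant lung cancer, amplification of MET and raised AXL are known routes by which cells signal past a blocked EGFR.

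Upstream sequences are shown for 4 genes because 2 of them, MET and MST1R, had lower signals in erlotinib in both lines while GAS6 and PROS1 had higher signals in both, and for AXL because its signal separated the lines. Each is the 250 bases that precede the annotated RefSeq start on the gene's own strand in GRCh38.p14, written 5′ to 3′. The windows lie at chr7:116671946-116672195 on the plus strand for MET, chr3:49903874-49904123 on the minus strand for MST1R, chr13:113864077-113864326 on the minus strand for GAS6, chr3:93973897-93974146 on the minus strand for PROS1 and chr19:41218973-41219222 on the plus strand for the first of the 2 AXL starts in the RefSeq table. Capitals mark matches, on either strand, to the letters of 4 motifs: AP-1, TGANTCA; TEAD, CATTCC; ETS, CCGGAA; and the GC box, GGGCGG.
MET: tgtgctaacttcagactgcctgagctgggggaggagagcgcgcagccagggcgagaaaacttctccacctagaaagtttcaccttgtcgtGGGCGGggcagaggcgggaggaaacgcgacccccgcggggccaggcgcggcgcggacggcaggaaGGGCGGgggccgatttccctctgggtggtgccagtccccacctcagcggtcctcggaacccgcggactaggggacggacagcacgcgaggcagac
MST1R: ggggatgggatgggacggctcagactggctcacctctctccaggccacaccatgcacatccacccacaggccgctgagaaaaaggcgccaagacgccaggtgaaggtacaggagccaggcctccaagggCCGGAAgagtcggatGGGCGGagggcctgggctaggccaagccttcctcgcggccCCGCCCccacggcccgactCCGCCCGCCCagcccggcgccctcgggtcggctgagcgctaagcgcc
GAS6: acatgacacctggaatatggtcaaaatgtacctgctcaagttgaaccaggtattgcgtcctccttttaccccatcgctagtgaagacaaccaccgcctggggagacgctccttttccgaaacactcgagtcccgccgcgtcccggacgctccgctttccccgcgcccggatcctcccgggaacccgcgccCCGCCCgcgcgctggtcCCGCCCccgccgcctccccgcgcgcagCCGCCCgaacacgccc
PROS1: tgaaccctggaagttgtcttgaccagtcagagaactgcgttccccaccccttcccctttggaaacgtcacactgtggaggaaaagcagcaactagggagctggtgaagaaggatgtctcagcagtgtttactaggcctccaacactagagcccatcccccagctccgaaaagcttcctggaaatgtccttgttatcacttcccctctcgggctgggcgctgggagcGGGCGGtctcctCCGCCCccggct
AXL: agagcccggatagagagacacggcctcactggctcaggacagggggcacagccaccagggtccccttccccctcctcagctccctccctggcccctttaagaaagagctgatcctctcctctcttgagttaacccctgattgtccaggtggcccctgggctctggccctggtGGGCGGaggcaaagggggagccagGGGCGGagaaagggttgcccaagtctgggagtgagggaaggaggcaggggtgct
The GC box letters occurred in all 5 windows, with 2 matches in MET, 4 in MST1R, of which 2 overlap each other, 3 in GAS6, 2 in PROS1 and 2 in AXL. Among 35116 windows of the same length in the RefSeq table, 42.6% held them. The ETS letters, which 14.5% of all windows hold, occurred once, in MST1R. The AP-1 letters, present in 6.57% of all windows, and the TEAD letters, present in 11.9%, were in none of the 5. All 8 genes had an entry in the promoter table, and 3 are not printed.

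The deposited values are linear MAS5 signals, a summary of each probe set's brightness, and log2(signal + 8) was taken for the tests, on which scale the differences of dim probe sets are understated. Tested were the probe sets with a group mean at or above the table's median signal of 13. A probe set was called where limma's test gave a Benjamini-Hochberg adjusted p under 0.05 over all probe sets tested. Statements below on arrays that do or do not overlap describe the signals, and no share over all probe sets is given for them. Array medians ranged from 11.1 to 14.5, precision was limited by having 3 arrays per group, and arrays of a group correlated across probe sets with r from 0.992 to 0.997. Of 8 markers of lung adenocarcinoma epithelium, EPCAM, CDH1, KRT7, KRT8, KRT18 and KRT19 were at 1464.7 or more on all 12 arrays, whereas NKX2-1 had a mean of 14.1 and NAPSA of 3.93 in PC9 in DMSO against 2088 and 252 in HCC827 in DMSO. Of the 5 leukocyte markers found, 4 were under the table median on all arrays, the exception being CSF1R. The ratio of the actin control probes at the 3′ and 5′ ends, which rises as RNA is degraded or shortened, was 2.17 ± 0.0563 in HCC827 in DMSO and 3.03 ± 0.598 in HCC827 in erlotinib (SD, n = 3), with 2.18 ± 0.152 and 2.22 ± 0.271 in the PC9 groups. It therefore moved with erlotinib in HCC827, and values from the fit with this ratio as a covariate are given where they changed a result.

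In erlotinib, MET and MST1R fell and GAS6 and PROS1 rose in both lines, while HGF fell and AXL and TYRO3 rose in HCC827. In PC9, 5 of the 15 tested probe sets were called, 2 higher and 3 lower, where 60.1% of all tested probe sets were called, 34.0% higher and 26.2% lower. That count depended on the scaling, with 10 of the 15 called under quantile normalization and 8 under median centring. In HCC827, 14 of the 15 were called, 6 higher and 8 lower, against 48.0% of all, 26.2% higher and 21.8% lower. The 8 include 2 HGF probe sets that passed the filter through HCC827 in DMSO alone, so that their fall was built in. Between the lines in DMSO, all 15 were called, 5 higher in PC9 and 10 lower (including 2 HGF probe sets that passed the filter through HCC827 in DMSO alone), against 72.4% of all, 34.9% higher and 37.6% lower. The PC9 response minus the HCC827 response, which is the test of a difference in response, was called for 10 of the 15, 5 in each direction, against 40.3% of all, 21.7% higher and 18.6% lower. The 5 higher include HGF 209960_at, which passed the filter through HCC827 in DMSO alone, so its place there is no support for a direction. The PC9 response and the line comparison share the PC9 arrays in DMSO, and the HCC827 response shares the HCC827 arrays in DMSO, so their values are given side by side only. The median log2 difference over all tested probe sets was 0.049 in PC9 and 0.017 in HCC827, and centring each array on its median moved it to -0.098 and -0.057. With that centring the calls over all probe sets split into 6569 higher and 9383 lower in PC9, from 8871 and 6833 as deposited, and into 5232 and 7090 in HCC827, from 6833 and 5698.

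**Figure D1:**
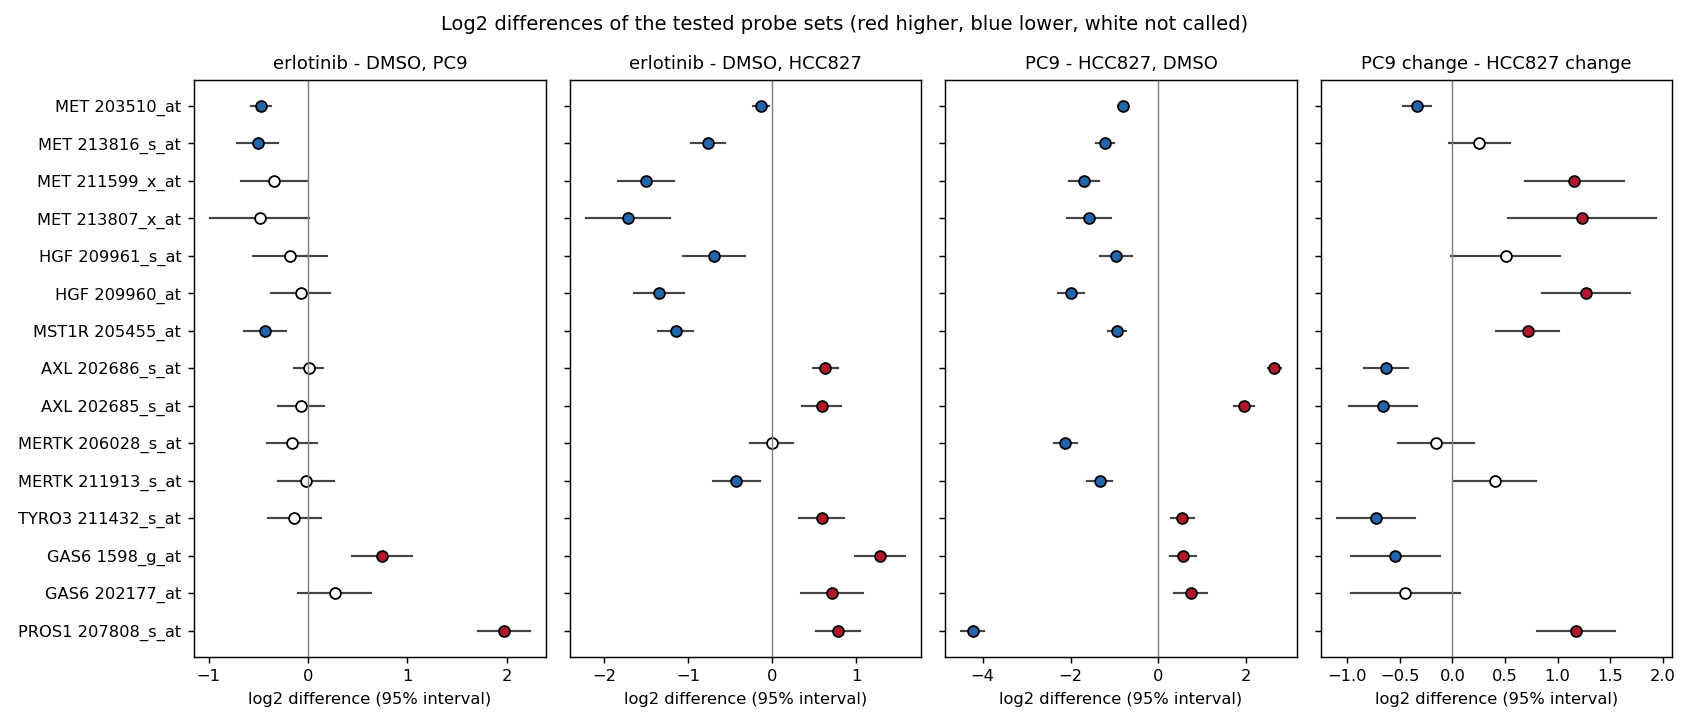
Log2 differences of the 15 tested probe sets with 95% intervals, in 4 panels: the erlotinib response of PC9, that of HCC827, PC9 minus HCC827 in DMSO, and the PC9 response minus the HCC827 response. Filled points were called at adjusted p under 0.05, red higher and blue lower, and white points were not; the 2 AXL probe sets are at 2.64 and 1.95 and PROS1 is at -4.23 in the panel between lines.

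MET, the HGF receptor, fell in erlotinib in both lines and was higher in HCC827 than in PC9. Its brightest probe set, 203510_at, gave signals of 1743.3, 1675 and 1615.1 in PC9 in DMSO and 1216, 1189.4 and 1211.9 in erlotinib. In HCC827 it gave 2898.2, 3031 and 2933.8 in DMSO and 2640.8, 2651.2 and 2769.6 in erlotinib. The 4 groups did not overlap, in the order HCC827 in DMSO, HCC827 in erlotinib, PC9 in DMSO, PC9 in erlotinib. The log2 difference was -0.47 ± 0.05 (SE) in PC9, with an adjusted p of 1.38e-07 in limma's test, and -0.14 ± 0.05 in HCC827, with an adjusted p of 0.0206. PC9 was lower than HCC827 in DMSO by -0.81 ± 0.05, with an adjusted p of 5.78e-11. The small HCC827 fall lost its call under 6 alternatives. These were the fits without HCC827 DMSO replicate 2 (-0.12, adjusted p = 0.0889), without HCC827 erlotinib replicate 1 (-0.12, adjusted p = 0.0602), without erlotinib replicate 2 (-0.13, adjusted p = 0.0682) or without erlotinib replicates 2 and 3 (-0.16, adjusted p = 0.0823), with the actin ratio as a covariate (-0.16, adjusted p = 0.111) and with no intensity trend of the variance (adjusted p = 0.0916).

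The other 3 MET probe sets fell much further in HCC827 than the brightest one. For 213816_s_at the signals were 337.5, 284.1 and 259.3 in HCC827 in DMSO and 160.3, 184 and 162.2 in erlotinib, and 123.4, 122.5 and 117.1 against 81.2, 84.7 and 82.1 in PC9. For 211599_x_at they were 147.5, 146.2 and 147.8 in HCC827 in DMSO and 62.1, 41 and 39.7 in erlotinib, and 33.8, 50.1 and 37.7 against 30.3, 36.1 and 24.2 in PC9. All 4 probe sets separated the treatments without overlap in HCC827, and in PC9 211599_x_at was the one whose treatments overlapped. That count describes the signals only, as the share of all probe sets without overlap is not given. The fourth, 213807_x_at, went from 118, 100.3 and 119.4 to 44.3, 30 and 16.5 in HCC827, and from 26.9, 48.8 and 24.6 to 15.3, 23.9 and 23.6 in PC9. Suffixes _x and _s mark probe sets with probes that can match more than 1 transcript or gene, and where each lies along the MET transcript was not analysed here.

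Given as a share of the DMSO mean of the same line, the 4 MET probe sets stood close together in PC9 in erlotinib and far apart in HCC827. In HCC827 the 3 erlotinib arrays held 89.4 to 93.7% of the DMSO mean by 203510_at, 54.6 to 62.7% by 213816_s_at, 27.0 to 42.2% by 211599_x_at and 14.7 to 39.4% by 213807_x_at. In PC9 the mean in erlotinib was 0.719, 0.683, 0.745 and 0.626 of the mean in DMSO by the same 4 probe sets. The size of the HCC827 fall thus depended on the probe set, from a log2 difference of -0.14 through -0.76 ± 0.10 (adjusted p = 7.57e-06) and -1.50 ± 0.16 (adjusted p = 9.21e-07) to -1.72 ± 0.24 (adjusted p = 1.75e-05). With the actin ratio as a covariate, 211599_x_at stood at -1.19 and 213807_x_at at -0.88, and both stayed called. Without HCC827 erlotinib replicates 2 and 3, which had the highest ratios, 211599_x_at stood at -1.15 and 213807_x_at at -1.20, also called. With replicates 2 and 3 left out, the lone erlotinib array is assumed to vary like the other groups.

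**Figure D2:**
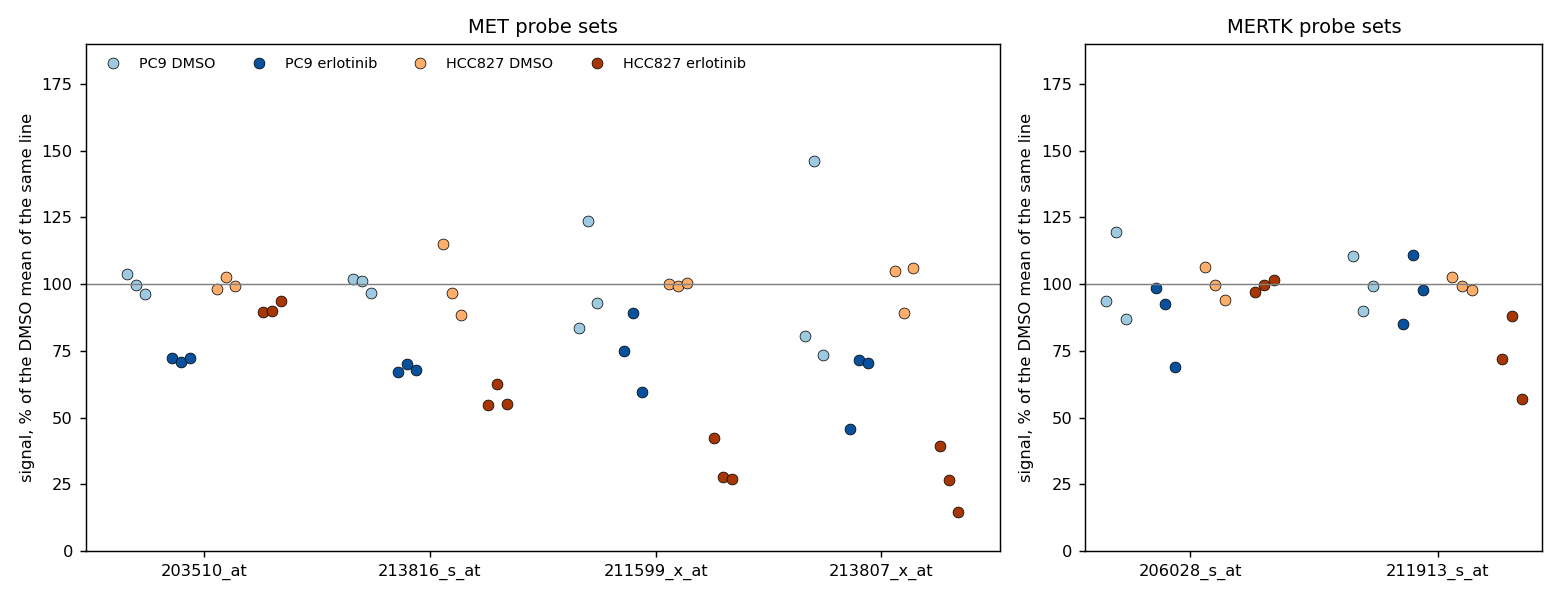
Signal of each tested MET and MERTK probe set on every array, as a percentage of the DMSO mean of the same line and probe set; each point is 1 array, and colours mark the 4 groups. The HCC827 erlotinib points lie between 89.4 and 93.7% for MET 203510_at and between 14.7 and 39.4% for 213807_x_at.

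In PC9 the 2 brighter MET probe sets were called lower, 213816_s_at at -0.51 ± 0.10 (adjusted p = 2.48e-04). The 2 dimmer ones pointed the same way without passing, 211599_x_at at -0.34 ± 0.16 (adjusted p = 0.0715) and 213807_x_at at -0.49 ± 0.24 (adjusted p = 0.0864). Both dimmer ones passed under quantile normalization, at -0.58 and -0.70, and under median centring, at -0.49 and -0.63. With the actin ratio as a covariate, 213807_x_at was called lower in PC9 (-0.45, adjusted p = 0.0216). The 2 dimmer ones also passed when some single arrays were left out: 211599_x_at at -0.44 without PC9 DMSO replicate 1, at -0.45 without PC9 erlotinib replicate 2 and at -0.34 without HCC827 erlotinib replicate 1, and 213807_x_at at -0.64 without PC9 DMSO replicate 3 and at -0.49 without HCC827 erlotinib replicate 3. Whether MET fell more in PC9 or in HCC827 depended on the probe set: the PC9 response minus the HCC827 response was -0.34 ± 0.06 (adjusted p = 5.66e-04) by 203510_at but 1.16 ± 0.22 (adjusted p = 6.17e-04) by 211599_x_at and 1.23 ± 0.33 (adjusted p = 0.0078) by 213807_x_at, with 0.26 ± 0.14 (adjusted p = 0.15) by 213816_s_at. With the actin ratio as a covariate 213807_x_at gave 0.43 (adjusted p = 0.267), and with the log2 signals of all 4 probe sets averaged MET gave 0.58 (adjusted p = 0.00463), the reverse of its brightest probe set. The line difference in DMSO was called by all 4 probe sets, at -0.81, -1.22, -1.69 and -1.58 from the brightest to the dimmest.

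HGF, the ligand of MET, was dim in both lines and fell in HCC827 in erlotinib. The probe set 209960_at gave 29.7, 26.2 and 27 in HCC827 in DMSO and 4.6, 6.5 and 7.1 in erlotinib, against 0.1, 0.4 and 2.6 in PC9 in DMSO and 1.3, 0.1 and 0.2 in PC9 in erlotinib. HCC827 in DMSO was thus the only group above the table median of 13 by that probe set, and all 9 other arrays were below it. The second, 209961_s_at, gave 20.7, 24.4 and 18.1 in HCC827 in DMSO, 10.5, 9 and 10.5 in HCC827 in erlotinib, 2.5, 9.9 and 9.1 in PC9 in DMSO and 4.8, 6 and 4.3 in PC9 in erlotinib. Both HGF probe sets passed the filter through HCC827 in DMSO alone, so that a difference from that group in the filtered fit was built in. In the fit with no filter, the HCC827 difference in erlotinib was -1.34 (adjusted p = 1.47e-06) for 209960_at and -0.69 (adjusted p = 0.00753) for 209961_s_at, and the arrays did not overlap. The second lost its call with the actin ratio as a covariate (-0.73, adjusted p = 0.0612) and without HCC827 erlotinib replicates 2 and 3 (-0.65, adjusted p = 0.0802). In PC9 neither was called, at -0.07 ± 0.14 (adjusted p = 0.669) and -0.18 ± 0.17 (adjusted p = 0.385), although 209961_s_at was called lower without PC9 DMSO replicate 1 (-0.43, adjusted p = 0.0164).

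In DMSO, the PC9 arrays were below the HCC827 arrays by both HGF probe sets without overlap. As all PC9 signals lay under the table median, the size of that difference was set by the constant added before the log: for HGF 209960_at it was -1.99 with 8, -4.01 with 1 and -0.85 with 32. The PC9 mean of 209960_at was 1.03 in DMSO and 0.533 in erlotinib, which left no room for a measurable fall. Its difference in response between the lines was called, but that call is a description only and no support for a difference. By 209961_s_at, whose PC9 signals were also under 13, the difference in response was 0.51 ± 0.25 (adjusted p = 0.113), and it was called under 3 alternatives, without PC9 DMSO replicate 2 (0.64, adjusted p = 0.0482), with a constant of 32 (0.26, adjusted p = 0.0484) and with the HGF probe sets averaged (0.49, adjusted p = 0.00512). The 3 other HGF probe sets, 210755_at, 210997_at and 210998_s_at, reached at most 3.7, 5 and 7 on any array and were not tested. Of 7 markers of fibroblasts, a usual source of HGF, COL1A2, DCN, PDGFRB, THY1 and FAP were at 10.4 or less on all arrays, whereas COL1A1 had group means from 71.0 to 460 and LUM from 1.4 to 183, each higher in erlotinib than in DMSO. Their part in the HGF values was not tested.

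MST1R, the receptor of macrophage-stimulating protein, fell in both lines, and further in HCC827. Its single probe set, 205455_at, gave 61.3, 52.2 and 56.9 in PC9 in DMSO, 41.2, 35.8 and 43.1 in PC9 in erlotinib, 115.3, 113.6 and 120.3 in HCC827 in DMSO and 49.9, 46.6 and 47.8 in HCC827 in erlotinib. HCC827 in DMSO stood 2.05-fold above PC9 in DMSO by the means, whereas after erlotinib the HCC827 arrays lay below all PC9 arrays in DMSO and above all PC9 arrays in erlotinib. The fall was -0.43 ± 0.10 in PC9 (adjusted p = 0.00126) and -1.15 ± 0.10 in HCC827 (adjusted p = 9.71e-08). The responses differed by 0.72 ± 0.14 (adjusted p = 7.34e-04), and PC9 was lower than HCC827 in DMSO by -0.94 ± 0.10 (adjusted p = 2.29e-07). All 4 calls were kept under each alternative that was run. In erlotinib the ratio of the HCC827 means was 0.413 and of the PC9 means 0.705.

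**Figure D3:**
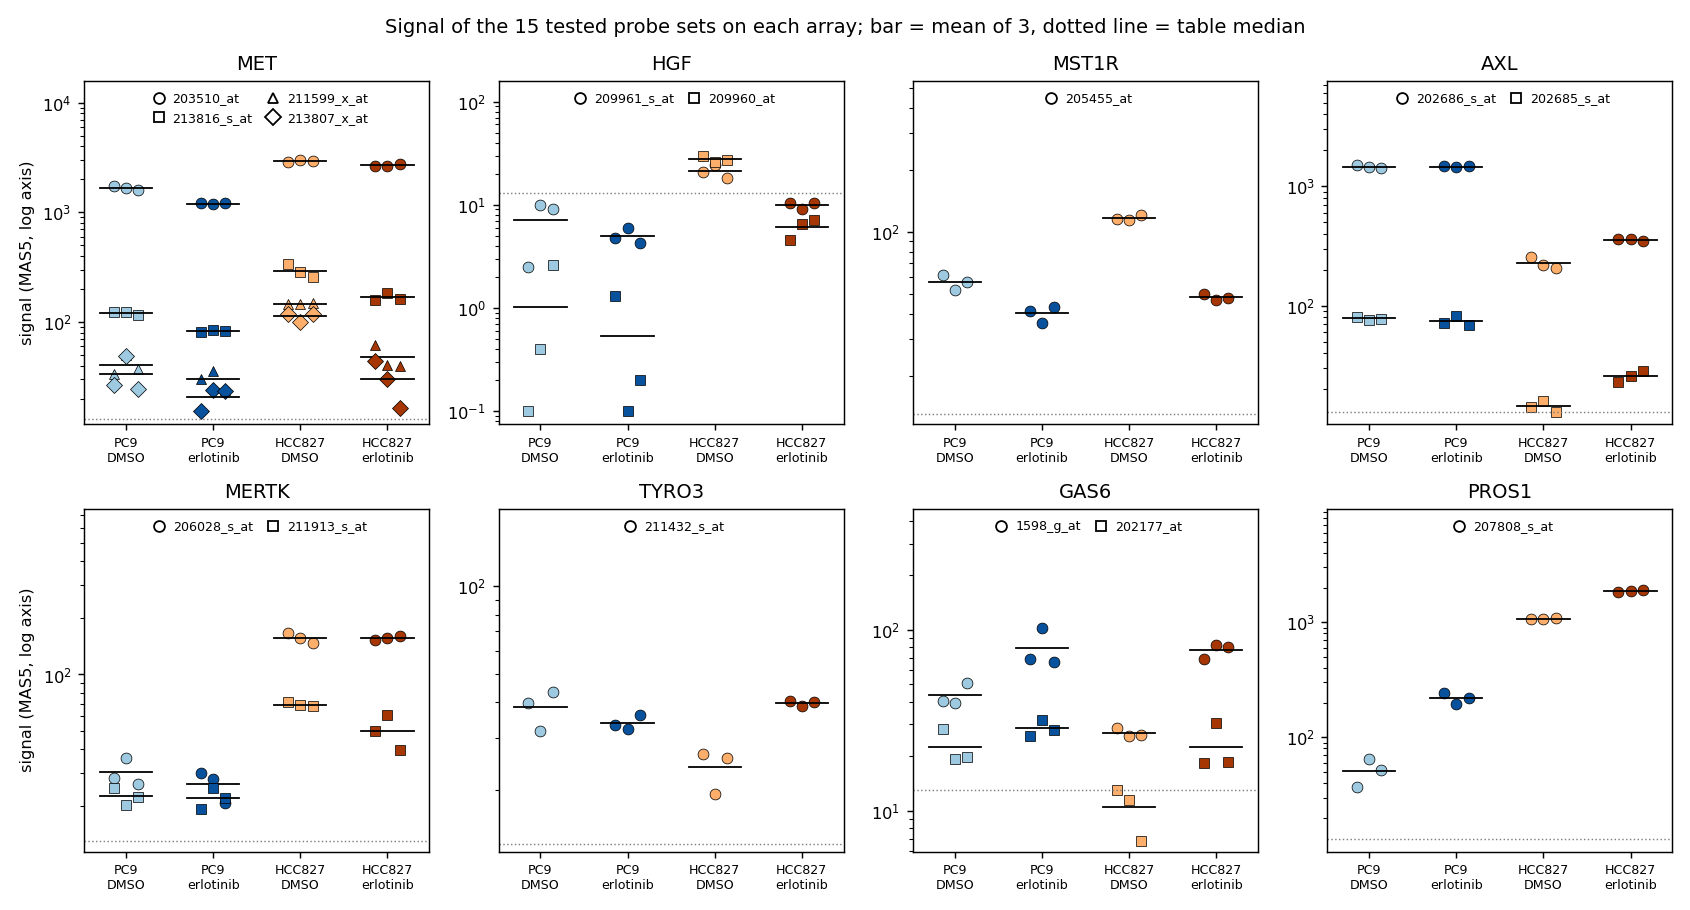
MAS5 signal (log axis) of the 15 tested probe sets on each of the 12 arrays, 1 panel per gene and 1 marker shape per probe set; bars are means of 3 arrays and the dotted line is the table median of 13. AXL is high in both PC9 groups, PROS1 and MERTK are high in both HCC827 groups, and HGF is near or under the dotted line throughout PC9.

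AXL, a TAM receptor, was much higher in PC9 than in HCC827, and it rose in erlotinib in HCC827. By 202686_s_at the signals in HCC827 were 254.9, 219.9 and 207.2 in DMSO and 359.1, 361.6 and 348.1 in erlotinib, and those in PC9 were 1491.9, 1436.6 and 1424.2 in DMSO and 1460.5, 1436.9 and 1470 in erlotinib. By 202685_s_at they were 14.2, 16 and 13 in DMSO and 23.2, 25.7 and 28.4 in erlotinib in HCC827, and 81.2, 75.8 and 78.1 in DMSO and 71.6, 82.5 and 69.4 in erlotinib in PC9. The HCC827 treatments were separate by both probe sets, the PC9 treatments overlapped by both, and every PC9 array was above every HCC827 array. The HCC827 rise was 0.64 ± 0.07 (adjusted p = 1.43e-06) and 0.59 ± 0.11 (adjusted p = 2.99e-04), which was 1.57-fold and 1.79-fold by the means of the signals. The HCC827 mean in erlotinib, 356 ± 7.18 (SD, n = 3) by 202686_s_at, stayed under the PC9 mean in DMSO of 1451 ± 36.0.

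In PC9 the 95% interval of the AXL difference ran from -0.14 to 0.15 by 202686_s_at (adjusted p = 0.955) and from -0.30 to 0.16 by 202685_s_at (adjusted p = 0.605). Quantile normalization brought 202685_s_at to a call, at -0.28 (adjusted p = 0.0425), and left 202686_s_at at 0.08 (adjusted p = 0.324). The responses of the lines differed by -0.63 ± 0.10 (adjusted p = 8.83e-05) and -0.66 ± 0.15 (adjusted p = 0.00285), the HCC827 response being the higher. PC9 in DMSO was above HCC827 in DMSO by 2.64 ± 0.07 (adjusted p = 2.26e-15) and 1.95 ± 0.11 (adjusted p = 5.95e-11), or 6.38-fold and 5.44-fold by the means. Both HCC827 rises, both line differences and both differences in response kept their calls under each alternative that retained the probe set.

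MERTK, the TAM receptor known for clearance of dying cells by macrophages, had the opposite line pattern. By 206028_s_at the signals were 167, 156.1 and 147.6 in HCC827 in DMSO and 152.4, 156.4 and 159.5 in erlotinib, against 28.3, 36.1 and 26.2 in PC9 in DMSO and 29.8, 27.9 and 20.8 in erlotinib. By 211913_s_at they were 71, 68.8 and 67.8 and then 49.9, 61 and 39.5 in HCC827, and 24.9, 20.3 and 22.4 and then 19.2, 25 and 22 in PC9. Every HCC827 array was above every PC9 array by both probe sets, and the HCC827 treatments overlapped by the brighter one and were separate by the other. PC9 in DMSO was lower than HCC827 in DMSO by -2.12 ± 0.12 (adjusted p = 7.7e-11) and -1.34 ± 0.13 (adjusted p = 1.01e-07). The leukocyte markers PTPRC, CD14, CD163 and CD3E were at 6.8 or less on all arrays, and CSF1R had a mean of 17.2 in HCC827 in DMSO. The third probe set, 211912_at, reached at most 2.7 and was not tested.

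Erlotinib left the brighter MERTK probe set in HCC827 at a difference of -0.01 ± 0.12, with a 95% interval from -0.26 to 0.25 (adjusted p = 0.975), the one probe set of the 15 that was not called in that line. The dimmer one fell by 0.43 on the log2 scale (adjusted p = 0.0142). That call was lost without HCC827 erlotinib replicate 3 (-0.29, adjusted p = 0.0866), without erlotinib replicates 2 and 3 (-0.41, adjusted p = 0.0677) and with the actin ratio as a covariate (-0.19, adjusted p = 0.499). In PC9 neither was called, at -0.16 ± 0.12 (adjusted p = 0.261) and -0.02 ± 0.13 (adjusted p = 0.889), but the brighter one was called lower under quantile normalization (-0.39, adjusted p = 0.0125) and median centring (-0.31, adjusted p = 0.0426). A difference in response was not called, at -0.16 ± 0.17 (adjusted p = 0.493) and 0.40 ± 0.19 (adjusted p = 0.0989), and the second was called without HCC827 erlotinib replicate 2 (0.53, adjusted p = 0.0303).

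TYRO3, the TAM receptor best known from the nervous system, rose in HCC827 from below the PC9 level to about that level. The probe set 211432_s_at gave 26.6, 19.3 and 25.7 in HCC827 in DMSO and 40.3, 38.8 and 39.9 in erlotinib, and 39.8, 31.8 and 43.5 in PC9 in DMSO and 33.3, 32.3 and 36.2 in erlotinib. The HCC827 DMSO arrays lay below all others, and those of HCC827 in erlotinib lay within the range of PC9 in DMSO. The rise in HCC827 was 0.59 ± 0.12 (adjusted p = 9.87e-04), the PC9 difference was -0.14 ± 0.12 (adjusted p = 0.356), and the responses differed by -0.73 ± 0.18 (adjusted p = 0.00376). PC9 in DMSO was above HCC827 in DMSO by 0.54 ± 0.12 (adjusted p = 9.43e-04). The HCC827 rise lost its call with the actin ratio as a covariate (0.53, adjusted p = 0.0536) and with both TYRO3 probe sets averaged (0.20, adjusted p = 0.0919), the difference in response lost its call with both averaged (-0.27, adjusted p = 0.118), and PC9 was called lower under quantile normalization (-0.37, adjusted p = 0.0146). The second probe set, 211431_s_at, ranged from 1.7 to 10.8 and was not tested.

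GAS6, the ligand of all TAM receptors, rose in erlotinib in both lines. By 1598_g_at the signals were 40.3, 39.4 and 50.6 in PC9 in DMSO, 68.8, 102 and 66.4 in PC9 in erlotinib, 28.7, 25.8 and 26.3 in HCC827 in DMSO and 68.7, 82.5 and 80.8 in HCC827 in erlotinib. By 202177_at they were 28.4, 19.4 and 19.8, then 26, 31.7 and 27.9 in PC9, and 13.1, 11.5 and 6.8, then 18.4, 30.5 and 18.5 in HCC827. Both probe sets separated the HCC827 treatments, and 1598_g_at alone separated those of PC9, where 202177_at overlapped. The mean of 202177_at in HCC827 in DMSO, 10.5, was under the table median. By 1598_g_at the rise was 0.74 ± 0.14 in PC9 (adjusted p = 2.5e-04) and 1.29 ± 0.14 in HCC827 (adjusted p = 1.62e-06), or 1.82-fold and 2.87-fold by the means. By 202177_at the PC9 difference was 0.27 ± 0.17 (adjusted p = 0.193) and the HCC827 rise was 0.72 ± 0.17 (adjusted p = 0.00274), which lost its call without HCC827 erlotinib replicates 2 and 3 (0.53, adjusted p = 0.0905).

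The HCC827 and PC9 arrays in erlotinib overlapped by both GAS6 probe sets, while in DMSO PC9 was above HCC827 by 0.55 ± 0.14 (adjusted p = 0.00225) and 0.73 ± 0.17 (adjusted p = 0.00119). By 202177_at the line difference was 1.06 with a constant of 1 and 0.36 with 32. The HCC827 rise by that probe set was 1.04 and 0.35 with the same constants. The difference in response was -0.54 ± 0.20 (adjusted p = 0.0406) by 1598_g_at and -0.45 ± 0.24 (adjusted p = 0.159) by 202177_at. The first of these rested on most of the arrays. It lost its call when any 1 of 8 arrays was left out, these being PC9 DMSO replicate 3 (-0.45, adjusted p = 0.106), PC9 erlotinib replicates 1 and 3 (-0.46 and -0.44), each of the 3 HCC827 DMSO replicates (-0.58, -0.52 and -0.53) and HCC827 erlotinib replicates 2 and 3 (-0.50 and -0.51). It also lost it with the actin ratio as a covariate (-0.46, adjusted p = 0.202), with a constant of 32 (-0.34, adjusted p = 0.073), with no filter (adjusted p = 0.0733) and without HCC827 erlotinib replicates 2 and 3 (-0.39, adjusted p = 0.276).

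PROS1, the gene of protein S, had the largest log2 line difference of the 15 probe sets and rose in erlotinib in both lines. Its single probe set, 207808_s_at, gave 36.8, 64.4 and 51.6 in PC9 in DMSO and 241.9, 195 and 220.6 in PC9 in erlotinib. In HCC827 it gave 1072.6, 1065.9 and 1084.9 in DMSO and 1837.1, 1862 and 1890.4 in erlotinib. The 4 groups did not overlap, and every HCC827 array was above every PC9 array. The rise was 1.97 ± 0.12 in PC9 (adjusted p = 8.07e-10), or 4.30-fold by the means, and 0.79 ± 0.12 in HCC827 (adjusted p = 6.65e-05), or 1.73-fold. The log2 response was larger in PC9 by 1.18 ± 0.18 (adjusted p = 5.66e-05), and PC9 in DMSO was below HCC827 in DMSO by -4.23 ± 0.12 (adjusted p = 9.6e-15), where the HCC827 mean was 21.1 times the PC9 mean. The calls were kept under each alternative that was run.

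Some fibroblast markers rose beside GAS6 and PROS1. Of the 7 in the list, COL1A1 and LUM passed the filter and were called higher in erlotinib in both lines, COL1A1 from 71.0 to 292 in PC9 and from 150 to 460 in HCC827 and LUM from 1.4 to 104 and from 6 to 183, as means of 3 arrays, the LUM means in DMSO being under the table median. LUM thus passed the filter through the erlotinib groups alone, so that its rise was built in and is no support for a direction. The 5 others, COL1A2, DCN, PDGFRB, THY1 and FAP, stayed under the table median on all 12 arrays. The summed signal of the 7 ranged from 82.3 to 119.8 in PC9 in DMSO, from 387.9 to 472.1 in PC9 in erlotinib, from 163.7 to 187.3 in HCC827 in DMSO and from 625.8 to 690 in HCC827 in erlotinib. Of 5 endothelial markers, PECAM1 and CDH5 were measured in PC9, at 835 and 105 in DMSO, and VWF, KDR and TEK were under the table median on all arrays. The part of these markers in the GAS6 and PROS1 results was not tested. In bulk RNA, a change in the number of cells of a kind and a change in the RNA of each cell cannot be told apart.

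Genes around HGF activation and inhibition were next examined as a list of 11 genes, each represented by its brightest probe set, of which 10 were tested. Most are proteases or protease inhibitors, but not all act on HGF, MST1 being an exception. In PC9, 5 rose, 1 fell and 4 were not called, with a median log2 difference of 0.28, where 64.0% of the 13185 genes measured this way were called, 36.0% higher and 28.0% lower, with a median of 0.047. TMPRSS2, MST1 and HPN passed the filter through 1 group alone, so that their part in these counts is no support for a direction. TMPRSS2, a membrane serine protease, had means of 12.1 ± 2.37 in DMSO and 306 ± 52.4 in erlotinib in PC9 (SD, n = 3), and erlotinib in PC9 was the one group in which it reached the table median. TMPRSS4, a related protease, rose by 0.92 in PC9 (adjusted p = 7.9e-05). MST1, the ligand of MST1R, had means of 4.37 and 12.6 in PC9 and of 6.20 and 20.1 in HCC827, in DMSO and erlotinib. In HCC827, 6 rose and 2 fell, with a median of 0.22, against 50.9% of all genes called, 31.7% higher and 19.2% lower, with a median of 0.068. TMPRSS4 was called in opposite directions in the lines, and in HCC827 it fell from 88.3 ± 9.24 to 19.3 ± 4.17, a log2 difference of -1.82 ± 0.16 (adjusted p = 8.88e-08). TMPRSS2 stayed under the table median in both HCC827 groups, with means of 3.63 and 11.4.

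Between the lines in DMSO, 2 of these 10 genes were higher in PC9 and 5 lower, with a median of -0.22, against 75.8% of all genes called, 36.6% higher and 39.2% lower. PLAU, the urokinase protease that can cut HGF, had 239 ± 6.84 in PC9 and 1333 ± 64.9 in HCC827, a difference of -2.44 ± 0.06 (adjusted p = 2.46e-15). SERPINA5, a protease inhibitor, had a mean of 6.27 in PC9 and 17.2 in HCC827 and reached the table median in HCC827 alone. Its part in the count of lower genes is no support for a direction. TMPRSS2, among those called higher in PC9, had DMSO means of 12.1 in PC9 and 3.63 in HCC827, both under the table median. These lists, like the genes themselves, were chosen with earlier results of these data known, and their counts are a description.

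**Figure D4:**
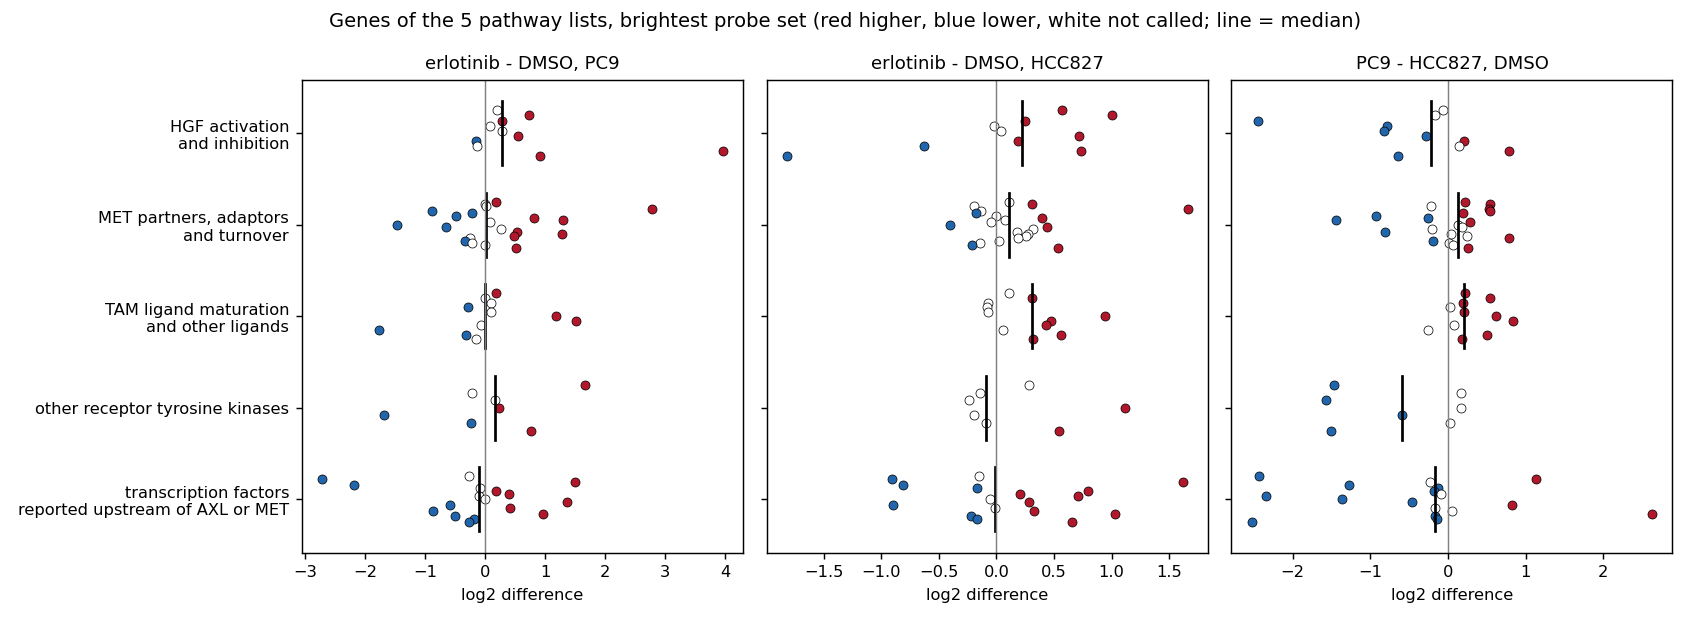
Log2 differences of the genes of 5 pathway lists, 1 point per gene by its brightest probe set, for the erlotinib responses of PC9 and HCC827 and for PC9 minus HCC827 in DMSO; black lines are list medians, red points were called higher, blue lower and white not called. TMPRSS2 is the point farthest to the right in PC9, at 3.96, and ETV4 lies at -2.72.

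Adaptors, partners and regulators of MET turnover were mixed in direction. In PC9, 8 of 21 tested genes rose, 6 fell and 7 were not called, with a median of 0.014, against 64.0% of all genes called, 36.0% higher and 28.0% lower. CBLB, a ubiquitin ligase that downregulates receptor kinases, rose by 2.78 ± 0.13 in PC9 (adjusted p = 1.14e-11), from 99.0 ± 17.0 to 723 ± 84.0, and by 1.66 ± 0.13 in HCC827 (adjusted p = 1.9e-08), from 65.9 ± 8.96 to 225 ± 20.5. GAB1, the docking protein of MET, rose in PC9 by 1.30 ± 0.11 (adjusted p = 4.33e-08), and ITGA6, an integrin chain that partners MET, fell by 1.47 on the log2 scale. In HCC827, 5 rose, 3 fell and 13 were not called, with a median of 0.11, against 50.9% of all genes called. There SOS1, an activator of RAS, rose by 0.54 and the integrin chain ITGB4 by 0.44. ITGB4 was called in the opposite direction in PC9, at -0.65 (adjusted p = 1.33e-04). Median centring turned the PC9 split to 6 higher and 8 lower and the HCC827 split to 5 and 5.

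EGFR itself, the target of erlotinib, fell in PC9 from 1195 ± 17.7 to 855 ± 45.7, by 0.48 on the log2 scale (adjusted p = 1.28e-06), and stood in HCC827 at 2271 ± 65.5 and 2269 ± 136, a log2 difference of 0.00 ± 0.06 (adjusted p = 0.977). In DMSO, 8 of the 21 genes were higher in PC9 and 5 lower, with a median of 0.12, against 75.8% of all genes called. GAB1 was lower in PC9 by -1.44 ± 0.11 (adjusted p = 5.37e-09), EGFR by -0.92 ± 0.06 (adjusted p = 1.7e-10) and PIK3R1, the regulatory subunit of PI3-kinase, by -0.81. The rise of GAB1 in erlotinib brought the PC9 mean from 45.8 ± 6.20 to 124 ± 16.8, beside 137 ± 8.60 in HCC827 in DMSO.

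Genes for the maturation of TAM ligands, further ligands and effectors were mostly higher or not called in HCC827 and mixed in PC9. In HCC827, 6 of 11 tested rose and the 5 others were not called, with a median of 0.31, against 50.9% of all genes called and 31.7% called higher, and 1 fell under quantile normalization. VKORC1, which recycles the vitamin K that GAS6 and protein S need, rose there by 0.56 ± 0.11 (adjusted p = 6.15e-04). LRP1, an endocytic receptor, had means of 5.03 in DMSO and 16.8 in erlotinib in HCC827, and of 11.5 and 37.4 in PC9. Its log2 differences were 0.95 in HCC827 and 1.19 in PC9. LRP1 reached the table median in the 2 erlotinib groups alone, so that a rise was built in by the filter. Its part in these counts is no support for a direction. PROC, the gene of protein C, for which protein S is a cofactor, reached the table median in PC9 in erlotinib alone, with a mean of 49.4 against 12.1 in DMSO, and its part in these counts is no support for a direction. In PC9, 3 rose, 3 fell and 5 were not called, with a median of 0.00, a split of 5 and 3 under quantile normalization and of 2 and 4 under median centring, against 64.0% of all genes called. There VKORC1 was lower by -0.32, and SOCS3, a suppressor of cytokine signalling, fell from 423 ± 15.5 to 119 ± 16.9, by 1.76 on the log2 scale (adjusted p = 8.07e-10). Between the lines, 8 were higher in PC9 and 3 were not called, with a median of 0.21 and with 5 higher and 1 lower under quantile normalization, against 75.8% of all genes called, 36.6% higher. The 8 included the protease ADAM17, which sheds MERTK, by 0.54. They also included LRP1 by 0.62 and PROC by 0.84, whose DMSO means were under the table median in both lines.

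Of 25 other receptor tyrosine kinases, 16 were under the filter, 2 had no probe set with a single symbol and 7 were tested. In PC9, 3 rose and 2 fell, with a median of 0.16, and 2 rose and 2 fell under either other scaling, against 64.0% of all genes called. ROR1, a WNT5A receptor, fell from 297 ± 49.0 to 86.1 ± 7.71, by 1.69 on the log2 scale (adjusted p = 8.61e-10), CSF1R, the receptor of macrophage colony-stimulating factor, rose by 1.67 to a mean of 20.8, and STYK1, a kinase-like membrane protein, rose by 0.76. In HCC827, 2 rose and 5 were not called, with a median of -0.09, against 50.9% of all genes called, the 2 being PTK7, a pseudokinase, by 1.12 ± 0.09 (adjusted p = 5.39e-08) and STYK1 by 0.55. Between the lines, 4 were lower in PC9 and 3 were not called, with a median of -0.59, against 75.8% of all genes called, 39.2% lower. The largest differences were FLT4, the lymphatic VEGF receptor, at -1.56, STYK1 at -1.51 and CSF1R at -1.47. FLT4 reached the table median in HCC827 alone, with DMSO means of 1.8 in PC9 and 21.1 in HCC827, so its part in the count is no support for a direction. CSF1R had DMSO means of 1.1 in PC9, under the table median, and 17.2 in HCC827.

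Among 17 transcription factors that have been reported upstream of AXL or MET, 6 rose and 7 fell in PC9, with a median of -0.10, and 8 rose and 6 fell in HCC827, with a median of -0.01, where 64.0% and 50.9% of all genes were called. Median centring turned the HCC827 split to 5 higher and 6 lower. ETV4, an ETS factor, fell in PC9 from 128 ± 9.23 to 13.03 ± 4.36, by 2.72 on the log2 scale (adjusted p = 1.77e-10), and in HCC827 by 0.91. FOSL1, an AP-1 subunit, fell in PC9 by 2.19 on the log2 scale (adjusted p = 1.37e-09), from 632 ± 38.1 to 137 ± 39.6. It was also called lower in HCC827, at -0.81 (adjusted p = 2.08e-04), with means of 1539 in DMSO and 876.5 in erlotinib. FOS, another subunit, rose by 1.51 in PC9 and by 1.62 in HCC827. TWIST1, a mesenchymal factor, rose in HCC827 by 1.03, from a mean of 6 in DMSO, under the table median, to a mean of 20.7.

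The line comparison of these factors had 3 higher in PC9 and 10 lower, with a median of -0.17, against 75.8% of all genes called and 39.2% called lower, and 3 higher and 6 lower under median centring. MZF1, among the 10 lower, reached the table median in HCC827 alone, with DMSO means of 2.27 in PC9 and 43.7 in HCC827. Its part in the count is no support for a direction. TWIST1 was higher in PC9 by 2.63 ± 0.18 (adjusted p = 8.09e-10), with DMSO means of 79.0 in PC9 and 6 in HCC827, the latter under the table median. ZEB1, a repressor of epithelial genes, was lower by -2.53 ± 0.09 (adjusted p = 1.87e-13), with 14.6 ± 0.462 in PC9 and 122 ± 0.755 in HCC827. ETS1 was lower in PC9 by -2.43 ± 0.11 (adjusted p = 5.17e-12). Their relation to AXL or MET was not tested.

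For each of the 8 genes, the genes of most similar pattern were found by the root mean square difference of log2 values over the 12 arrays, each gene being centred on its own mean, among 13177 other genes. For MET by 203510_at they were DFFB at 0.079, NEMP2 at 0.082 and DDX19A at 0.083, where the median over all genes was 0.62. For AXL they were BACE2 at 0.14, LTBP2 at 0.15 and GPAT2 at 0.16, where the median was 1.23. BACE2, a membrane protease, had means of 400 and 431 in PC9 in DMSO and erlotinib and 50.3 and 86.3 in HCC827, the same order of groups as AXL.

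For PROS1 the nearest were AHNAK2 at 0.16, COXFA4L3 at 0.22 and the chemokine gene CXCL2 at 0.27, against a median of 1.97. AHNAK2 went from 6.67 to 55.4 in PC9 and from 297 to 421 in HCC827. For GAS6 by 1598_g_at they were ASAP3, NKX3-2 and EDEM2, at 0.12, 0.17 and 0.18, and for MERTK ADTRP, WASF3 and ZNF518B, at 0.12, 0.15 and 0.15. MST1R was nearest to FAM111B, MPHOSPH9 and TM4SF4, at 0.11, 0.13 and 0.15, HGF by 209961_s_at to XPR1, FCMR and SLC25A40, at 0.17, 0.17 and 0.18, and TYRO3 to THOC5, VKORC1 and TSPO, each at 0.13. VKORC1 is also a member of the TAM ligand list, and the 12 arrays behind each measure of likeness form 4 groups.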

How the data were processed

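Messenger RNA of 12 samples was hybridised to one-colour Affymetrix arrays after RNeasy Plus extraction and NuGEN Ovation amplification, per the labels' protocols. The deposited signal intensity values came from MAS5, per the submitters' processing notes (version not given in the sources used here). By the values themselves, the authors had scaled each array to a 2% trimmed mean of 150, and detection calls were not used here. Of 54675 probe sets, 62 are controls, 41091 have 1 symbol in the platform annotation, 1801 several and 11721 none. All 8 symbols matched the RefSeq gene table by gene ID. The log2 of signal plus 8 was fitted in limma 3.58.1 (R 4.3.3) with 1 mean per group over all 12 arrays, an intensity trend of the variance and Benjamini-Hochberg adjustment over 26109 probe sets. The procedure was tested on simulated data. The genes, lists and tests were chosen with earlier results of these data known. The text names all probe sets of the 8 genes, EGFR, up to 3 called genes with the largest change per list and comparison, and the 3 nearest genes by pattern. It also names cell type markers and some list genes that reached the table median in some groups alone. Alternatives were other constants, scalings, filters, probe set summaries and variances, fewer groups, the replicate block, the actin ratio as a covariate, and arrays left out. The list counts under 2 other scalings were added after seeing the data.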

Additional observations from a re-analysis of the deposited data

Results flagged for a closer look

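For 10 of the 15 tested probe sets the response to erlotinib differed between the lines by limma's test of the PC9 response minus the HCC827 response, where 40.3% of all tested probe sets were called, a positive value meaning that the PC9 log2 change was the higher. The values were -0.34 (adjusted p = 5.66e-04) for MET 203510_at, 1.16 (adjusted p = 6.17e-04) for MET 211599_x_at, 1.23 (adjusted p = 0.0078) for MET 213807_x_at, 1.27 (adjusted p = 9.65e-05) for HGF 209960_at and 0.72 (adjusted p = 7.34e-04) for MST1R 205455_at. Those of the TAM receptors were -0.63 (adjusted p = 8.83e-05) for AXL 202686_s_at, -0.66 (adjusted p = 0.00285) for AXL 202685_s_at and -0.73 (adjusted p = 0.00376) for TYRO3 211432_s_at, and those of the ligands were -0.54 (adjusted p = 0.0406) for GAS6 1598_g_at and 1.18 (adjusted p = 5.66e-05) for PROS1 207808_s_at. The HGF value, and its place among the 10, are a description only. All PC9 arrays were under the table median with and without drug, and the probe set passed the filter through HCC827 in DMSO alone. The GAS6 call was lost when any 1 of 8 arrays was left out, that of MET 213807_x_at with the actin ratio as a covariate (0.43, adjusted p = 0.267) and without HCC827 erlotinib replicates 2 and 3 (0.71, adjusted p = 0.123), and that of TYRO3 with its probe sets averaged (-0.27, adjusted p = 0.118). MET is the one gene of the 8 with called differences of both signs. Groups of 3 arrays are too small for a test of single outlying arrays.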

How the results depend on the processing

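Of 60 tested values of the 15 probe sets, 43 kept their side of the threshold under every alternative that retained the probe set. Called values among the 43 also kept their direction. Some that were not called changed sign, such as AXL 202686_s_at in PC9, which ranged from -0.14 to 0.08. The other 17 changed under at least 1 alternative, and 1 of them reversed: MET, -0.34 by 203510_at for the difference in response, was 0.58 with its probe sets averaged. The number of the 15 called in PC9 was 10 under quantile normalization and 8 under median centring. With the filter at the 70th percentile (signal 83.7), 8 of the 15 were still tested, and 7 of the 8 were called in HCC827, 8 between the lines and 6 for the difference in response, against 55.5%, 78.4% and 45.9% of all probe sets. With no filter, 39.5% of all probe sets were called in PC9, 29.4% in HCC827 and 24.4% for the difference in response. In HCC827 the share was 27.0% with the actin ratio as a covariate and 29.1% without HCC827 erlotinib replicates 2 and 3, which left 26.5% for the difference in response; the cause was not tested. Leaving out 1 array gave 5 to 7 of the 15 in PC9, 13 to 14 in HCC827, 15 between the lines and 9 to 11 for the difference in response, and 55.4 to 60.5%, 40.9 to 49.7%, 68.3 to 72.7% and 34.9 to 40.0% of all probe sets. With the replicate block, 59.4% of all probe sets were called in PC9 and 46.9% in HCC827, and no call among the 15 changed. Same-numbered arrays of the compared groups had correlations of deviations from -0.25 to 0.14, so the numbers were not taken as pairs. Dim probe sets limit HGF most, since without detection calls a signal under the table median cannot be told from background.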
